A study of Mus musculus with 3 samples.

Results

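The cell cycle and DNA replication genes described here are 40 of the 55536 GENCODE M21 genes in the deposited gene tables. They were chosen by symbol from a list of familiar regulators and machines of the cell cycle, and all 40 were found once each. By role, 12 act at the passage from G1 to S phase, 12 act in DNA replication or its control, and 16 act in or around mitosis. Ribosomal RNA-depleted total RNA was sequenced from the cytosolic fraction of primary macrophages grown from bone marrow of C57BL/6J mice. Lipid A, the part of bacterial lipopolysaccharide that TLR4 recognises, had been given at 100 ng/ml 120 min before. The libraries analysed here form 1 group of 3, with biological replicate numbers 1, 2 and 3 in the labels, and no genetic change is named. All 3 libraries carry the same donor identifier and the labels do not say that the cultures came from separate animals, so each SD and p-value covers only the spread between these libraries, which may be technical. No untreated, nuclear or whole-cell sample was analysed here, so the values are levels after lipid A in cytosolic RNA, and no change caused by lipid A can be read from them.

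Cells leave G1 when D-type cyclins with CDK4 or CDK6, and then E-type cyclins with CDK2, phosphorylate the RB family and free E2F factors, while CDK inhibitors hold these kinases back. E2F targets supply the MCM helicase, the PCNA sliding clamp and the enzymes that make deoxynucleotides, and genes for mitosis follow in G2 through CCAAT boxes and cell cycle genes homology regions (CHR elements) in their promoters. Bone-marrow-derived macrophages divide in culture under macrophage growth factor, and signalling through TLR4 is known to slow that division.

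Promoter sequence is shown first because CHR matches differed in number between the 3 role classes, and because the members printed span high and low levels; these 5 were chosen after their values were seen. RefSeq promoters on GRCm38.p6, from 250 bases before to 50 bases after the start, were available for 33 of the 40 members, with 37 promoters in all. Aurkb, Ccna2, Ccnd1, Ccnd2, Ccne2, Gmnn and Mcm4 were not searched. The letters searched, on both strands, were TTTGAA for the CHR element, GCGGGAA or GCGCGAA for the E2F core, and CCAAT for the box that NF-Y binds. These motifs do not overlap one another in the stretches printed. Each stretch reads 5′ to 3′ on the strand of its gene and overlaps no GENCODE exon of that gene, and capitals mark every match to the 3 motifs on either strand. The stretches are those of Mki67 (chr7:135716380-135716529, minus strand), Cdk1 (chr10:69352939-69353088, minus strand), Ccnb2 (chr9:70421555-70421704, minus strand), Cdc20 (chr4:118437353-118437502, minus strand) and the Cdkn1a start of transcript Cdkn1a-201 (chr17:29093619-29093768, plus strand). The first 4 stretches lie upstream of their genes, whereas the Cdkn1a stretch lies inside the gene, between an upstream first exon and the start of Cdkn1a-201.
Mki67: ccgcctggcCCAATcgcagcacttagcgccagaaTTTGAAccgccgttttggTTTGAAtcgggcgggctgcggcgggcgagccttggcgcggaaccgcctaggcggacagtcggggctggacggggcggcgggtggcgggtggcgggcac
Cdk1: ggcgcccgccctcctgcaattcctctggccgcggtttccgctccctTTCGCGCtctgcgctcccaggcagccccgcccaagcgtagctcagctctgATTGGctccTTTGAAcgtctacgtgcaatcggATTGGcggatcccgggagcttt
Ccnb2: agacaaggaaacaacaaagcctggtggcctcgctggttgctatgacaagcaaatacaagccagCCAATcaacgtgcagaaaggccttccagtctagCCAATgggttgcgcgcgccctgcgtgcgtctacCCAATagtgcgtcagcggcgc
Cdc20: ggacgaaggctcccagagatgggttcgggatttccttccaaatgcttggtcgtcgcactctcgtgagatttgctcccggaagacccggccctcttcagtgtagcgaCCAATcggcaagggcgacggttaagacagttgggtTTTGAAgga
Cdkn1a: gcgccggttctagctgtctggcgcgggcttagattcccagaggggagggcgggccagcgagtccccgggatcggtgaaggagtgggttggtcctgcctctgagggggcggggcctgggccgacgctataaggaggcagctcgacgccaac

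The Mki67 stretch held 2 CHR matches and 1 CCAAT, and the Cdk1 stretch held 1 CHR, 1 E2F core and 2 CCAAT in reverse. Ccnb2 showed 3 CCAAT boxes and Cdc20 showed 1 CCAAT followed by 1 CHR. Each stretch prints 150 bases of the window searched, so matches elsewhere in the window are not shown. Ccnb2 had 2 CHR matches in its window, both outside the printed stretch. The Cdkn1a stretch held none of the 3 motifs. Over the whole 300-base window, a CHR match was present in 10 of 14 mitotic members, in 1 of 10 replication members (Mcm2) and in 0 of 9 G1/S members, against 17.9% of all 32851 RefSeq promoters. Restricting the window to the 250 bases before the start left CHR matches in 6 of 14 mitotic members and in 16.0% of promoters. An E2F core match was present in 5 of 10 replication members (Mcm3, Mcm5, Mcm6, Mcm7 and Rrm1), in 2 of 9 G1/S members and in 1 of 14 mitotic members, against 6.00% of promoters. CCAAT was present in 13 of 14 mitotic, 8 of 10 replication and 4 of 9 G1/S members, against 37.4%. Members are counted once over all their promoters, whereas the background counts each promoter. A match describes letters only, and binding was not measured.

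**Figure D1:**
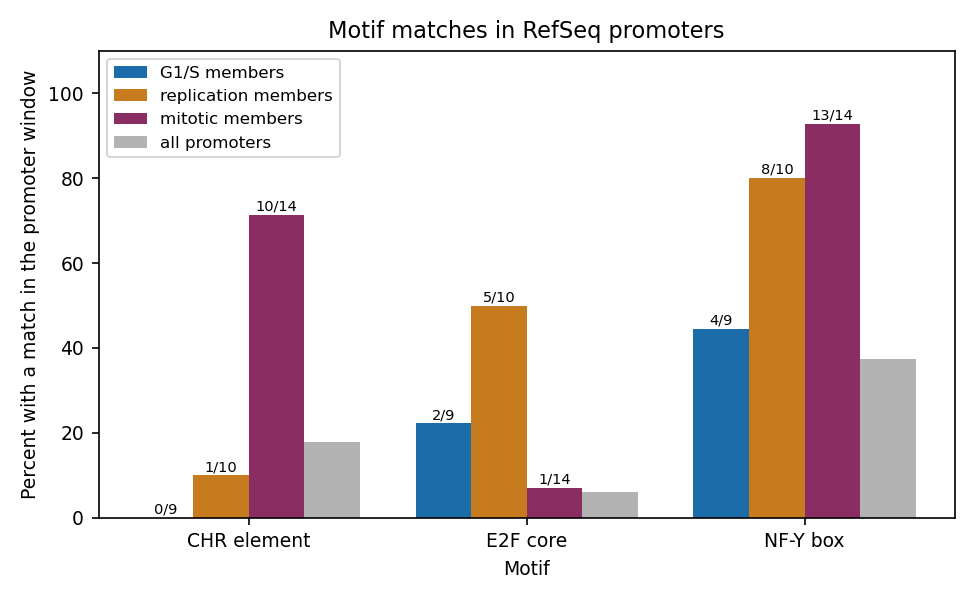
Percent of genes in each role class, and of all 32851 RefSeq promoters (grey), with at least 1 match to the CHR element, the E2F core or the NF-Y box (CCAAT) in a 300-base window. CHR matches stood in 10 of 14 mitotic members and in 0 of 9 G1/S members, and E2F cores in 5 of 10 replication members.

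Levels are given in TPM, the authors' unit of transcript abundance scaled for length and to a fixed total, which allows genes to be compared with one another. The libraries held 31152786, 114031592 and 59693298 expected counts. Nuclear protein-coding genes made up 21.1% to 23.5% of all TPM, so a level of 1 TPM is a larger share of the protein-coding RNA than the unit alone would imply. A gene was called detected at 1 TPM or more in every library, and 21 of the 40 members were detected, against 37.6% of the 22015 nuclear protein-coding genes. The median member stood at 1.54 TPM, between the median of all nuclear protein-coding genes, 0.113 TPM, and that of the 8281 detected ones, 6.84 TPM. In bulk RNA, fewer cells with a transcript and less of it per cell cannot be told apart.

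The 3 role classes lay at different levels. Detection was met by 10 of 12 G1/S members, 8 of 12 replication members and 3 of 16 mitotic members. Median levels were 3.28 TPM for G1/S, 1.87 TPM for replication and 0.562 TPM for mitotic members. In every library 11 of the 16 mitotic members stayed below 1 TPM, as did 2 of 12 in each of the other classes. Summed TPM was as uneven, with 78.2% ± 1.04 (SD, n = 3) of all member TPM in the G1/S class, 15.4% ± 0.889 in replication and 6.36% ± 0.159 in the mitotic class. Cdkn1a carried the G1/S sum: the 9 G1/S cyclins, kinases and E2f1 held 12.7% ± 0.574, less than the replication class.

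**Figure D2:**
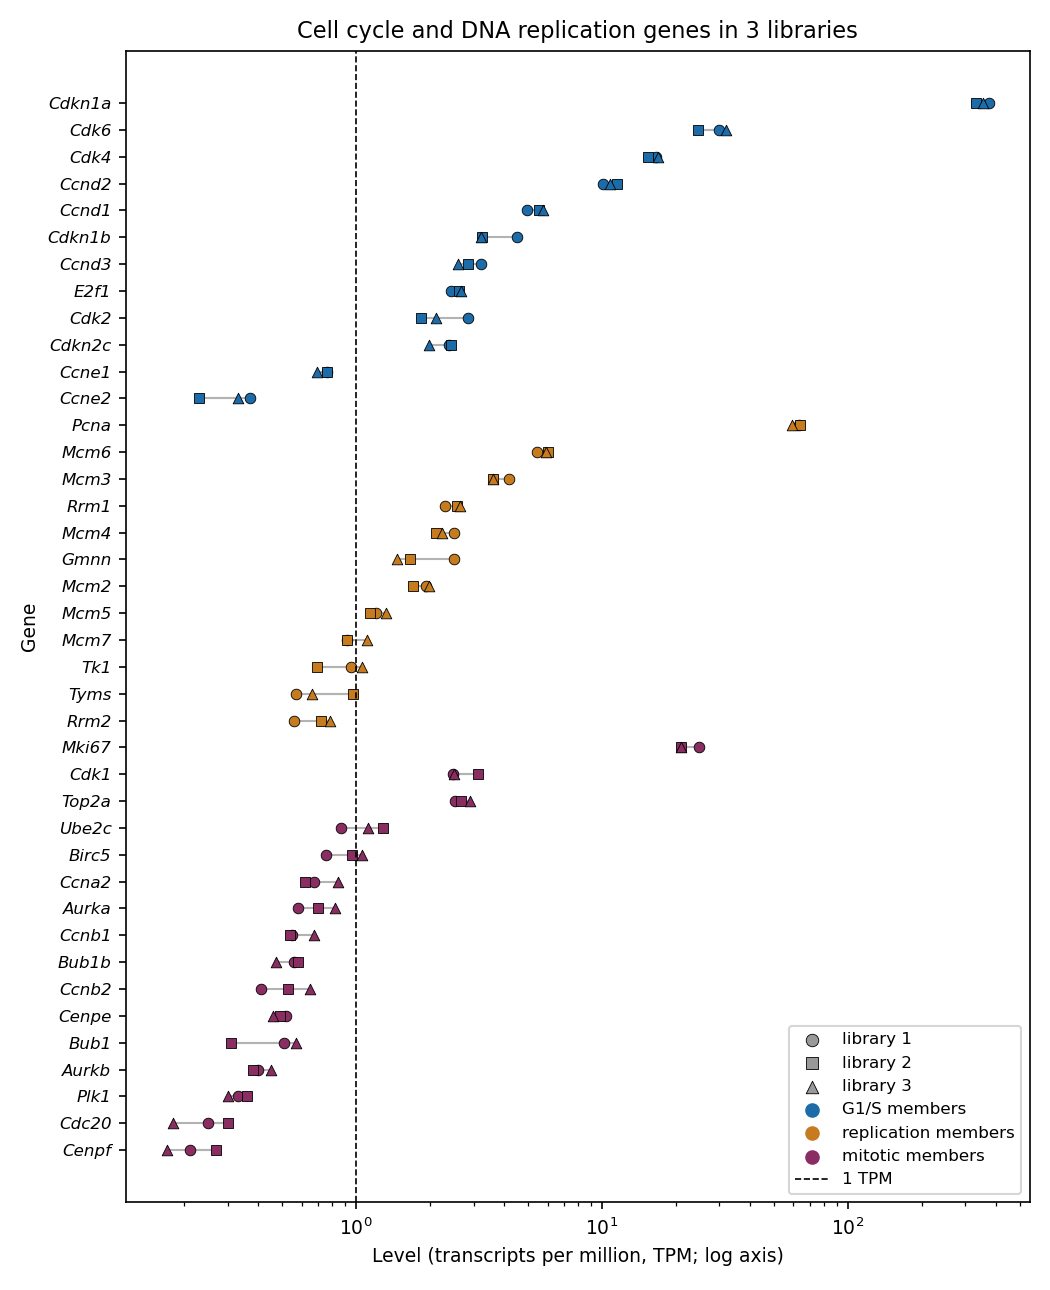
Level of each of the 40 members in the 3 libraries (TPM, log axis), coloured by role class and ordered by mean within a class. Cdkn1a lies between 332 and 374 TPM, and 11 mitotic members lie left of the dashed 1 TPM line in every library.

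On the log2(TPM + 1) scale, the median of the G1/S members exceeded that of the mitotic members by 1.64, 1.37 and 1.25 in replicates 1, 2 and 3 (mean 1.42 ± 0.20, SD, n = 3). Replication exceeded mitotic members by 1.00, 0.78 and 0.71 (0.83 ± 0.15). G1/S exceeded replication members by 0.64, 0.59 and 0.54 (0.59 ± 0.05). Each difference was positive in 3 of 3 libraries and larger than its SD, but with 3 libraries an exact two-sided sign test reaches no p under 0.25, so the order is a description of these libraries. Among members with a mean of at least 1 TPM, the order of replication and mitotic classes turned, to -0.11 ± 0.11, with Mki67, Cdk1, Top2a and Ube2c the mitotic members left.

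**Figure D3:**
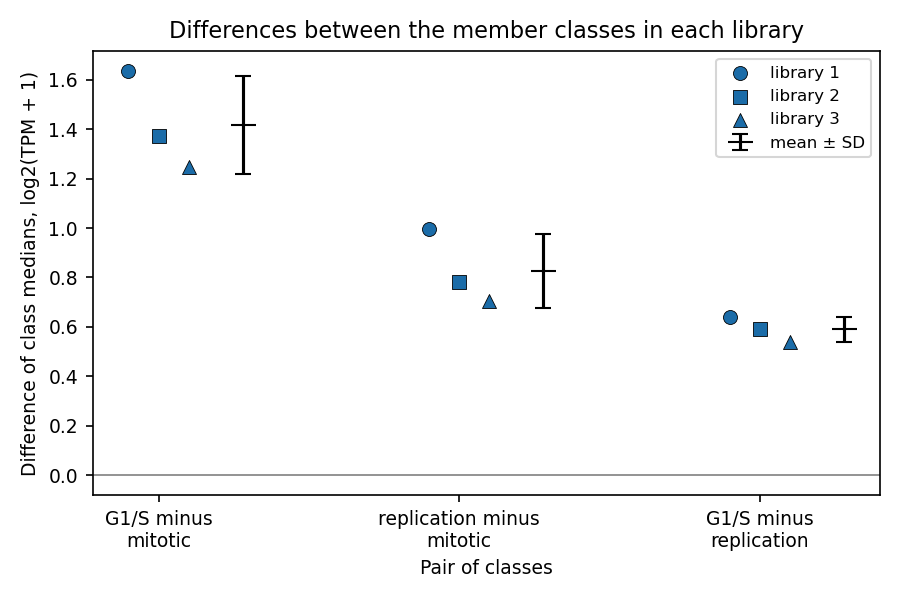
Difference between class medians on the log2(TPM + 1) scale in each library (symbols), with the mean and SD of the 3 libraries (black). All 9 values lie above 0, and G1/S minus mitotic is the widest, at 1.25 to 1.64.

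A few genes carried the sum. Cdkn1a, Pcna, Cdk6 and Mki67 together held 85.0% ± 0.584 of all member TPM. Ordered by mean level, 8 of the 39 neighbouring pairs had ranges over the 3 libraries that did not overlap, and 31 did. The separated steps were Cdkn1a above Pcna, Pcna above Cdk6, Mki67 above Cdk4, Cdk4 above Ccnd2, Ccnd2 above Mcm6, Ccnd1 above Mcm3, Mcm2 above Mcm5 and Aurkb above Plk1. The step from Aurkb to Plk1 rested on few counts, 39 and 29 in replicate 1. Their ranges overlapped in the authors' second quantification, where Aurkb went down to 0.126 TPM and Plk1 up to 0.182 TPM. Cdk6 and Mki67 overlapped, and most neighbours below 5 TPM could not be ordered.

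The CDK inhibitors were led by Cdkn1a, which encodes p21, an inhibitor of cyclin-CDK complexes that also binds PCNA (mm10 chr17:29090976-29100727, plus strand). Its level was 374, 332 and 355 TPM in replicates 1, 2 and 3, from 35284, 129261 and 67778 expected counts. All 3 libraries were high, and the mean of 354 TPM stood above 99.7% of protein-coding genes. Cdkn1a alone held 64.4% ± 0.836 of member TPM and stood 12.4 ± 1.21-fold above Cdk6, the next in its class. Cdkn1b, which encodes p27, was listed at 4.52, 3.25 and 3.22 TPM, with replicate 1 the highest. The TPM ratio of Cdkn1a to Cdkn1b was 98.4 ± 14.2. Cdkn2c, which encodes the CDK4 and CDK6 inhibitor p18, was listed at 2.39, 2.43 and 1.97 TPM and so lay below Cdkn1b in each library.

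Among kinases of G1, Cdk6 (mm10 chr5:3341485-3531008, plus strand) was the highest, at 29.8, 24.6 and 32.0 TPM. Cdk4 (mm10 chr10:127063534-127067920, plus strand), its close relative, was listed at 16.6, 15.3 and 16.8 TPM. The ranges of these gene levels did not overlap, and the ratio of Cdk4 to Cdk6 was 0.569 ± 0.0495. The Cdk6 level includes short forms of 697 and 425 nt. The leading transcripts overlapped in range, Cdk6-202 at 20.16, 15.73 and 20.60 TPM and Cdk4-201 at 15.99, 14.59 and 14.96 TPM. Within each library Cdk6-202 was the higher. Cdk2, the partner of cyclins E and A, was lower than Cdk4 and Cdk6, at 2.85, 1.83 and 2.11 TPM. E2f1, an activating E2F factor, was listed at 2.42, 2.62 and 2.67 TPM, close to Cdk2 in level.

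All 3 D-type cyclins were detected, and neither E-type cyclin was. Ccnd2 was the highest, at 10.1, 11.5 and 10.8 TPM. Ccnd1 followed at 4.96, 5.52 and 5.75 TPM, a ratio to Ccnd2 of 0.501 ± 0.0278. Ccnd3 was the lowest D-type cyclin, at 3.23, 2.84 and 2.60 TPM, and Ccnd1 exceeded it in 3 of 3 libraries. Cyclin E genes, which act later with CDK2, lay under 1 TPM throughout. Ccne1 was listed at 0.76, 0.76 and 0.69 TPM and Ccne2 at 0.37, 0.23 and 0.33 TPM, with Ccne1 the higher of the pair in 3 of 3 libraries.

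In the replication class, Pcna, the sliding clamp of the DNA polymerases (mm10 chr2:132249162-132253314, minus strand), stood apart at 63.0, 64.0 and 59.0 TPM. It held 73.2% ± 1.09 of the TPM of the class and was 10.7 ± 0.843-fold above Mcm6, the next gene. Its processed pseudogene Pcna-ps2 was listed at 0.493 TPM, and Pcna-ps1 at 0.

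The 6 subunits of the replicative helicase assemble in equal numbers, but their RNA levels were unequal. Mcm6 was the highest, at 5.42, 6.03 and 5.93 TPM. Mcm3 followed at 4.17, 3.60 and 3.59 TPM, without overlap with Mcm6, but part of this gene level lay in non-coding transcripts. The protein-coding form Mcm3-201 stood at 2.23, 2.10 and 2.26 TPM, beside 2.51, 2.09 and 2.24 TPM for Mcm4-201. Mcm7 was the lowest, at 0.92, 0.92 and 1.11 TPM, and missed detection in 2 libraries. The mean levels of Mcm4, Mcm2 and Mcm5 lay between them at 2.29, 1.86 and 1.22 TPM. The highest subunit exceeded the lowest 5.93 ± 0.607-fold.

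Enzymes of deoxynucleotide supply were low. Rrm1, the large subunit of ribonucleotide reductase, was detected at 2.29, 2.56 and 2.65 TPM. Rrm2, the small subunit made for S phase, lay at 0.56, 0.72 and 0.78 TPM, and the ratio of Rrm1 to Rrm2 was 3.68 ± 0.363. Tyms, thymidylate synthase, was listed at 0.57, 0.97 and 0.66 TPM. Tk1, cytosolic thymidine kinase, was listed at 0.95, 0.69 and 1.06 TPM, at or above 1 TPM in replicate 3 alone. Gmnn, whose product geminin blocks relicensing of origins, was detected at 2.51, 1.66 and 1.47 TPM, with replicate 1 above the other libraries.

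In the mitotic class, Mki67, which encodes the proliferation antigen Ki-67 of the mitotic chromosome surface (mm10 chr7:135689784-135716361, minus strand), went against the rest. It was listed at 24.85, 21.02 and 20.99 TPM, from 13042, 46171 and 22345 expected counts. Cdk1, the kinase that drives entry into mitosis, was next by mean level, at 2.47, 3.12 and 2.51 TPM. Mki67 exceeded the highest other member of the class in each library 7.95 ± 1.67-fold. That member was Cdk1 in replicate 2 and Top2a in replicates 1 and 3. Mki67 held 63.7% ± 3.84 of the TPM of the class, while the other 15 members summed to 12.6 ± 0.887 TPM. Top2a, the topoisomerase that untangles sister chromatids, was the only other detected mitotic member, at 2.52, 2.66 and 2.89 TPM.

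The partners of CDK1 were below 1 TPM. Ccna2, cyclin A2, was listed at 0.67, 0.62 and 0.84 TPM. Ccnb1, cyclin B1, was listed at 0.55, 0.54 and 0.67 TPM and Ccnb2, cyclin B2, at 0.41, 0.53 and 0.65 TPM. The B-type cyclins overlapped in range, with a ratio of 1.13 ± 0.183. Mitotic kinases were as low. Aurka, which acts at spindle poles, had a mean of 0.70 TPM and exceeded Aurkb, the kinase of the chromosomal passenger complex, in 3 of 3 libraries with a ratio of 1.70 ± 0.221. Expected counts in replicate 1 were only 53 for Aurka and 39 for Aurkb. In the authors' second quantification Aurkb was the higher in replicate 1 (0.307 against 0.274 TPM) and Aurka in replicates 2 and 3. Plk1, polo-like kinase 1, lay at 0.33, 0.36 and 0.30 TPM.

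Checkpoint, kinetochore and degradation genes were at the low end. Bub1 and Bub1b, kinases of the spindle checkpoint family, had means of 0.463 and 0.537 TPM and changed places between libraries, Bub1 being higher in 1 of 3. Cenpe and Cenpf, both kinetochore proteins, had means of 0.49 and 0.217 TPM, Cenpf being the lowest of all 40. Birc5, survivin, was listed at 0.75, 0.96 and 1.06 TPM and Ube2c, a ubiquitin-conjugating enzyme of the anaphase-promoting complex, at 0.87, 1.29 and 1.12 TPM, so each crossed 1 TPM in some libraries. Cdc20, an activator of that complex, was listed at 0.25, 0.30 and 0.18 TPM, from 21, 100 and 32 expected counts, and its level is correspondingly imprecise.

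The deposited transcript tables showed which forms these levels came from. In all 21 detected members the leading transcript was protein-coding, and in 12 of them it held at least 80% of the TPM of the gene in every library. Cdkn1a-201 held 99.3%, 99.5% and 99.2% of Cdkn1a, and Mki67-201 held 94.6%, 97.1% and 95.2% of Mki67. Cdk6 was divided: Cdk6-202, of 11525 nt, held 67.7%, 64.0% and 64.4%, and most of the remainder lay in the short forms Cdk6-203 (697 nt) and Cdk6-205 (425 nt). In the second quantification, which the authors made from the reads without the alignments, Cdk6-202 also led, with 42.9% ± 2.41. Of the 21 detected members 20 kept their leading transcript there, Cdk2 being the exception, and in 10 it held at least 80%. No such counts over all detected protein-coding genes are given, so these do not set the members apart from other genes.

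Retained-intron transcripts, which keep an intron and are annotated as non-coding, were a large part of 2 detected members, Mcm3 and Cdk1. They held 46.7%, 41.7% and 37.2% of the Mcm3 TPM and 35.2%, 44.9% and 40.8% of the Cdk1 TPM. The main ones were short: Mcm3-205 (607 nt), Mcm3-203 (716 nt) and Cdk1-204 (475 nt). The leading coding forms had 3031 nt (Mcm3-201) and 1253 nt (Cdk1-202). Mcm3-203 was listed at 0 in the second quantification. Cdk2, with 6.07%, was the only other detected member with a mean of 5% or more. In the second quantification Rrm1 (11.1% ± 5.88), Cdk2 (8.79% ± 1.32) and Cdk4 (5.20% ± 2.31) also reached 5%. Among members that were not detected, Tk1 had a higher share, 48.5% ± 3.65 (62.3% ± 2.71 in the second quantification), and Bub1b had 22.8% ± 4.19, at levels under 1 TPM on average. Over all detected members, retained-intron forms held 0.864% ± 0.0911 of summed TPM, and without Cdkn1a they held 2.53% ± 0.313. The share over all detected protein-coding genes, with none removed, was 3.41% ± 0.288. In the second quantification the retained-intron share of Mcm3 was 21.8% ± 10.3 and that of Cdk1 was 36.1% ± 7.75. Top2a had 69.0% ± 7.43 in its protein-coding form, with the rest in short processed transcripts. Tyms was the only one of the 40 members led by another class, Tyms-205, a nonsense-mediated decay form of 618 nt.

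**Figure D4:**
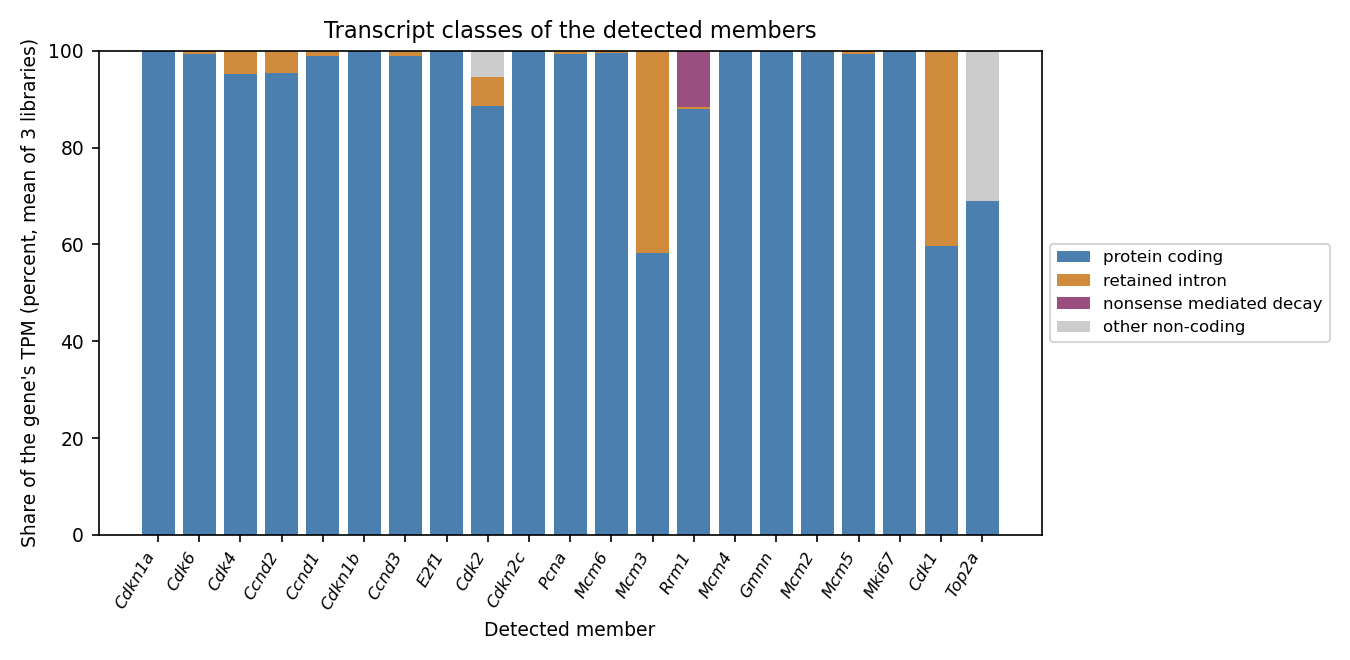
Mean share over 3 libraries of the TPM of each of the 21 detected members in protein-coding, retained-intron, nonsense-mediated decay and other transcripts (percent). Mcm3 and Cdk1 show retained-intron shares of 41.8% and 40.3%, and Top2a shows 69.0% in its protein-coding form.

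Gene levels in the second quantification had another scale, with a median member at 0.39 of the first. On the first scale's threshold 8 of 40 members were detected there. After both were scaled to the same protein-coding sum, which was decided after seeing the data, 22 members were detected and 39 of 40 lay within 1.5-fold of the first values. Ccne2 lay outside, 1.72-fold higher. No detected share over all protein-coding genes is given for the second quantification. Among the 8281 detected protein-coding genes 97.6% lay within the same bounds.

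Of the 40 members 14 share exon positions with a gene on the opposite strand, and for 7 of them that gene was listed at 1 TPM or more. The strand setting of the counting is not given in the sources used here, so reads of the partners cannot be told apart with certainty. Among members with a more abundant partner the widest gap was at Cdc20, whose partner Elovl1 was listed at 22.9 TPM against 0.243 TPM. Cops6 stood at 10.7 TPM opposite Mcm7, Exosc9 at 6.35 TPM opposite Ccna2 and Ints8 at 4.54 TPM opposite Ccne2. For Cdk4 the partner Tspan31 was listed at 21.3 TPM, and the Cdk4 value carries that limit. The partner of Cdkn1a, AC167363.2, was at 1.99 TPM, a small value beside 354 TPM.

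The spread between libraries was tested per gene against counting error alone, with edgeR normalisation factors, a chi-square test of the expected counts and Benjamini-Hochberg adjustment over all genes tested. It was exceeded in 24 of 40 members (60%), against 62.1% of 14037 genes and 61.9% of 11804 nuclear protein-coding genes. In this setting the members' share lay near the background. It lay below with protein-coding genes alone (50% against 61.5%) and with a mean of at least 50 counts (52.5% against 67.3%). Without the filter on low counts it lay above (65% against 43.4%). The smallest adjusted p-values, by this edgeR-scaled test, belonged to abundant members: 1.183e-117 for Cdk6, 2.357e-56 for Pcna, 5.083e-43 for Ccnd2 and 1.689e-38 for Mki67. Among members that did not pass were Mcm2, Mcm3, Mcm4, Mcm5 and Mcm7, with adjusted p-values from 0.0518 to 0.786, as well as Ccnd3, Ccne1, Ccne2 and Aurkb. Without replicate 1 the test called 14 members (35%, against 45.3% of genes), and without replicate 2 it called 15 (37.5%, against 37.9% of genes). edgeR also estimated a biological coefficient of variation per gene, a value that is drawn towards those of genes of like abundance. Its median was 0.179 in the members and 0.131 in tested protein-coding genes. Members with few counts had high values, such as 0.366 for Cdc20 and 0.241 for Bub1, against 0.114 for Cdk6 and 0.113 for Pcna. Bub1 did not pass the test above. The medians were not taken at matched abundance, so they do not show that members varied more.

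The libraries did not rank the same way in every class. After scaling to the protein-coding sum, replicate 1 was the lowest library for 9 of 16 mitotic members, replicate 3 for 6 and replicate 2 for 1. Among 10707 protein-coding genes above 0.1 TPM in every library, replicate 2 was the lowest for 41.0% and replicate 1 for 32.7%. The G1/S members were spread evenly, with 4 lowest in each library. Replicate 2 also held the least nuclear RNA, with Malat1 at 178 TPM against 741 and 812 TPM, and Neat1 at 14.4 against 42.6 and 50.8 TPM in replicates 1 and 3. Whether carried-over nuclear RNA or depth had a part in the ranks was not tested.

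Related gene lists placed the members among their partners, each count being genes detected in every library. Origin licensing and firing had 8 of 16 genes detected, led by the licensing factor Cdt1 at 7.82 ± 1.01 TPM, with the helicase accessory subunit Gins3 lowest at 0.0767 TPM. Replication fork and nucleotide supply had 15 of 26, led by the clamp loader subunit Rfc2 at 10.5 ± 1.39 TPM. RB, E2F and DREAM regulators had 13 of 19. There, Rb1 stood at 10.1 ± 1.42 TPM and Mybl2, the B-Myb partner of the mitotic programme, at 0.0967 TPM. Other CDK inhibitors and CDK partners had 9 of 12, led by cyclin G1 (Ccng1) at 26.3 ± 2.64 TPM, and Cdkn2a, the locus of p16 and p19ARF, was lowest at 0.127 TPM.

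Mitotic kinases, kinesins and spindle checkpoint genes outside the members had 12 of 30 detected and a median of 0.637 TPM, close to the 0.562 TPM of the mitotic members. The centromeric histone Cenpa (16.7 ± 1.68 TPM) and securin (Pttg1, 13.7 ± 0.537 TPM) led them, and the phosphatase Cdc25c was lowest at 0.13 TPM. Larger shares were detected in the other lists. Cohesin and condensin had 9 of 13 detected, with the cohesin subunit Stag2 at 15.3 ± 2.52 TPM and the condensin subunit Ncapg at 0.22 TPM. The anaphase-promoting complex had 16 of 17 detected, with its ubiquitin-conjugating enzyme Ube2s at 29.4 ± 1.75 TPM, and its inhibitor Fbxo5 was the exception at 0.117 TPM. Damage checkpoint and antiproliferative genes had 12 of 15 detected, led by the stress gene Gadd45b at 151 ± 16.9 TPM and Btg1 at 52.7 ± 11.3 TPM, with the kinase Chek1 at 0.167 TPM.

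**Figure D5:**
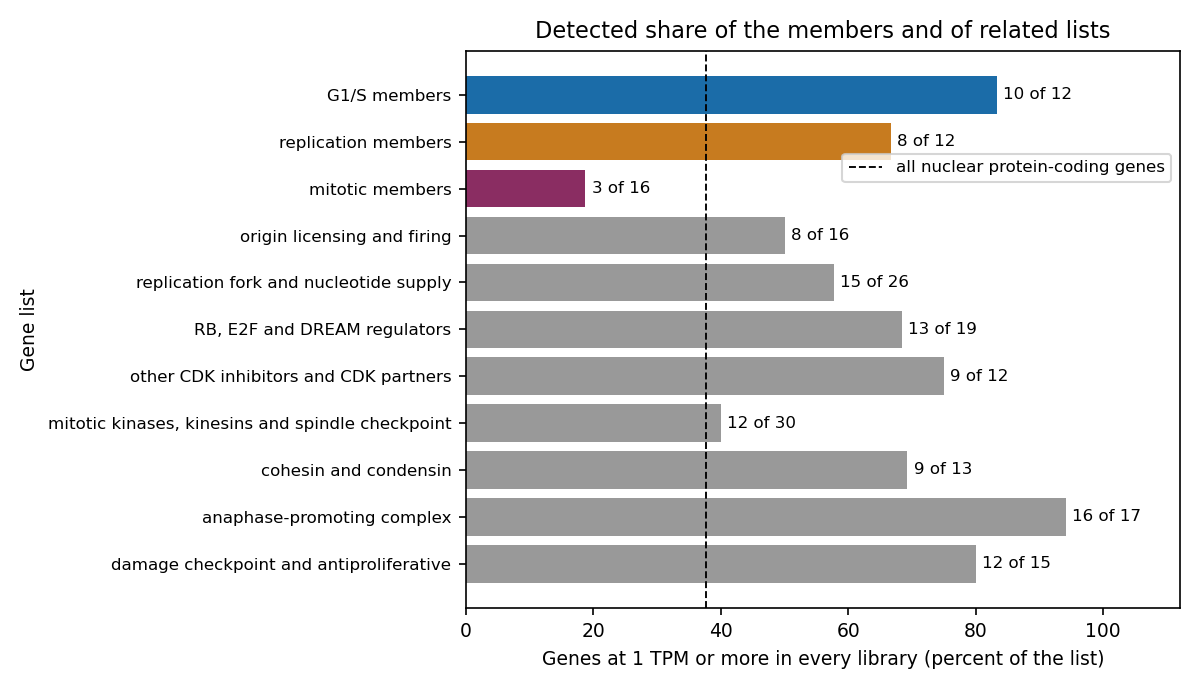
Percent of each list at 1 TPM or more in all 3 libraries, for the member classes (coloured) and related lists (grey), with the share of all nuclear protein-coding genes as a dashed line. The mitotic members, at 3 of 16, lie left of the line at 37.6%, and the anaphase-promoting complex, at 16 of 17, lies farthest right.

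Markers of macrophages and of other marrow cells were read in the same libraries, and their part in the member levels was not tested. All 10 macrophage markers were detected, with Lyz2 at 4039 ± 316 TPM. Of 10 haematopoietic progenitor markers 0 were detected and their sum was 1.47 to 2.00 TPM, with Kit the highest at 0.567 TPM. Erythroid markers had 0 of 9 detected, 4 of them listed at 0 in every library, B cell markers 0 of 7 and stromal markers 0 of 7. Among T cell markers Cd4 alone was detected in every library, at 18.2 TPM. Lck, the next highest, was listed at 1.14, 1.12 and 0.82 TPM, and Cd3d at 0. Granulocyte and mast cell markers had 2 of 8 detected, S100a9 at 13.5 TPM and S100a8 at 8.32 TPM, with Mcpt4 listed at 0.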

How the data were processed

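Cytosolic total RNA of 3 lipid A-treated macrophage libraries was used. Per the text listing deposited with each library, the build was mm10 and the annotation GENCODE M21, transcriptome alignments underlie the first tables, and the reads themselves the second transcript table. The aligner, its version and strandedness were not given in the sources used here.

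Deposited by the authors were expected counts (model estimates that need not be whole), TPM and FPKM per gene and transcript, and, per the file headers, estimated counts and TPM per transcript in a second quantification. Each transcript's share of its gene, a deposited percent column, was recomputed here from TPM. The bounds of the authors' credibility interval, handled as a signal, entered no comparison. Depth was 31152786, 114031592 and 59693298 expected counts, so 3 counts, the limit that a count of 0 allows, are 0.0963, 0.0263 and 0.0503 on the CPM scale. Such limits cover counting error only.

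Symbols matched GENCODE M21 for all 55536 gene identifiers. Members and lists were chosen with earlier results of these data known. Levels are mean ± SD of TPM over 3 libraries, and detection means TPM of at least 1 in each. Logs are log2(TPM + 1), a scale that compresses differences between low genes. Counts, rounded to whole numbers, were tested for spread beyond counting error in genes with a mean of at least 10 counts: edgeR 4.0.16 TMM factors gave expected values for a chi-square test on 2 degrees of freedom, Benjamini-Hochberg threshold 0.05, checked on simulated data. DESeq2 1.42.0 size factors were an alternative, as were other pseudocounts, thresholds, FPKM, the second quantification and leaving out each library. R 4.3.3, Python 3.11.15, numpy 2.4.6, pandas 2.3.3 and matplotlib 3.10.9 were used. In each related list the 2 highest genes and the lowest were eligible to be named. The lowest gene of 1 list is not reported here. Single genes were otherwise named as members. Motifs were searched in RefSeq promoters (GRCm38.p6).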

Additional observations from a re-analysis of the deposited data

How the results depend on the processing

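The differences between class medians kept their sign in 29 of 30 alternatives. With a pseudocount of 0.1, G1/S minus mitotic, replication minus mitotic and G1/S minus replication were 2.28, 1.47 and 0.80. On FPKM they were 1.76, 1.07 and 0.69, and in the second quantification 0.83, 0.44 and 0.39. List means gave 1.83 for G1/S minus mitotic and 1.01 for G1/S minus replication. Among members with a mean of at least 1 TPM the 3 values were 0.56, -0.11 and 0.67, the second being the reversal, from fewer members. Detected members numbered 7 at 5 TPM, 8 in the unscaled second quantification and 38 when nuclear protein-coding genes were made to fill the whole TPM total, an alternative chosen after seeing the data. No share over all protein-coding genes is given for these settings, and the 37.6% applies only to 1 TPM in the first tables. These counts therefore describe the scale and do not set the members apart from other genes. Scaling the libraries to one protein-coding sum gave 21, as before. Leaving out replicate 1, 2 or 3 put the members that varied beyond counting error at 14 (35%), 15 (37.5%) and 20 (50%). The genes were then 6507 (45.3% of those tested), 5205 (37.9%) and 6901 (49.5%). The second quantification gave 31 of 40 members (77.5%) and 13288 of 17738 genes (74.9%). The log2 difference of Bub1 and Bub1b ran from -0.16 to 0.024 when 1 library was left out, turning positive without replicate 2. For the 10 member ratios, 41 of 60 alternatives moved the value by less than the spread, 18 moved it more and 1 turned it. CHR matches before the start were found in 6 mitotic members, a window chosen after seeing the data. No paired analysis was possible because the series has 1 group. TPM rests on a total in which nuclear protein-coding genes are a minority, so the count of detected members depends on the scale, and members near 1 TPM should be read by their values.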
